A study of Gallus gallus with 2 samples.

Results

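The 9 genes described here carry, make, break down and sense retinoids. They are the carriers RBP4 and CRABP1, the enzymes ALDH1A1, ALDH1A3 and CYP1B1 that oxidise retinoids towards retinoic acid, the enzymes CYP26A1 and CYP26C1 that break retinoic acid down, and the receptors RARA and RARB. They were taken by name, and all 9 of 9 were found among the 23967 genes counted in each library.

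Retinoids derive from vitamin A, which travels in blood bound to a retinol binding protein. Inside cells retinol is oxidised to retinal and then, by the ALDH1A dehydrogenases, to retinoic acid. CRABP proteins bind retinoic acid in the cytoplasm, CYP26 enzymes inactivate it, and receptor pairs of an RAR with an RXR change transcription when it binds. In the embryonic eye of vertebrates ALDH1A1 marks the dorsal retina and ALDH1A3 the ventral retina, and a band of CYP26 enzymes lies between them. CYP1B1, a cytochrome P450, can oxidise retinol and is expressed in the developing eye. Retinal is also the chromophore of the photoreceptor opsins.

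Single cell RNA sequencing was performed on 2 libraries of embryonic chick retinal cells. In the OTX2CRISPR library the retinas had received the p18 plasmid with guide 2 against OTX2, which encodes a homeodomain protein needed for photoreceptor formation, and the CTRL library had received the same plasmid with no guide sequence. Both plasmids carried Cas9 under the CAG promoter, and both libraries came from embryonic day 5 (E5) retinas electroporated and then cultured for 48 h, of embryos typed as female. Cells positive for the OTX2ECR2::GFP reporter, which labels photoreceptors and restricted retinal progenitor cells (RPCs), were sorted, pooled over several retinas, and the opposite eye of each mutated retina went to CTRL. Cas9 need not cut in every electroporated cell, so OTX2CRISPR is taken here as a mixture of edited and unedited cells. The paper sequenced OTX2 amplicons from cells of the same sort. It reports that most OTX2CRISPR reads were mutated at the target, while some were wild type.

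With a single library per group no test across samples was possible. Levels are unique molecular identifiers (UMIs) summed over the cells of a class and given as counts per 1000000 UMIs of those cells (CPM). The ranges in parentheses are 95% exact Poisson or binomial (Clopper-Pearson) intervals, and they cover counting error only, not the variation between retinas. Those of levels and ratios treat the UMIs of a cell as independent, so they leave out the variation between cells. After filtering, OTX2CRISPR held 4928 cells and 13206843 UMIs, against 5073 cells and 14773938 UMIs in CTRL, and 38 barcodes occurred in both. OTX2 itself stood at 761 CPM in OTX2CRISPR and 1745 CPM in CTRL, while the GFP reporter stood at 604 CPM in OTX2CRISPR and 510 CPM in CTRL. Reads came mostly from the 3′ end of transcripts, away from the guide's site, so the OTX2 level does not check the editing.

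Cells were placed in 10 classes, named after markers that include no member and clustered with the members held out. Cone PR1-, cone PR2- and cone homotypical progenitor (PC)-like cells together numbered 107 in OTX2CRISPR and 2397 in CTRL. The BRINP2/SPIK2-like cells numbered 1833 in OTX2CRISPR and 31 in CTRL. Restricted RPC-like cells numbered 1157 in OTX2CRISPR and 1326 in CTRL, multipotent RPC-like cells 303 in OTX2CRISPR and 336 in CTRL, RGC-like cells (retinal ganglion) 511 in OTX2CRISPR and 148 in CTRL, HC1-like cells (horizontal) 507 in OTX2CRISPR and 88 in CTRL, HC2-like cells 224 in OTX2CRISPR and 438 in CTRL, and AC/HC/RGC-like cells, whose markers are those of amacrine, horizontal and ganglion precursors, 286 in OTX2CRISPR and 309 in CTRL. The restricted RPC-like class joined a cluster with 512 OTX2CRISPR and 1299 CTRL cells and a cluster with 645 in OTX2CRISPR and 27 in CTRL, of whose 8 class markers 5 were raised. A cluster drawn mostly from 1 library may be that library rather than a cell type, which touches every ratio within the BRINP2/SPIK2-like class and the smaller restricted cluster.

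Over whole libraries, OTX2CRISPR had less RBP4 and more CRABP1 than CTRL. Of the 9 members, 5 had at least 100 UMIs in the libraries together. Of these, CRABP1 alone was at least 2-fold higher in OTX2CRISPR, where 6.21% of the 10191 genes of that abundance were, and RBP4 alone was at least 2-fold lower, where 3.93% of those genes were. By log2 ratio RBP4 was 16th from the lowest and CRABP1 18th from the highest of those genes, whose median was 0.04. The ratio of CYP1B1 was near 1, and that of the other members lay between these extremes. Of these, ALDH1A1 (log2 ratio 0.66, 0.41 to 0.92) and RARB (0.86, 0.42 to 1.31) had at least 100 UMIs, and the rest had fewer. A whole-library ratio mixes the number of cells of each class with the level inside them.

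**Figure D1:**
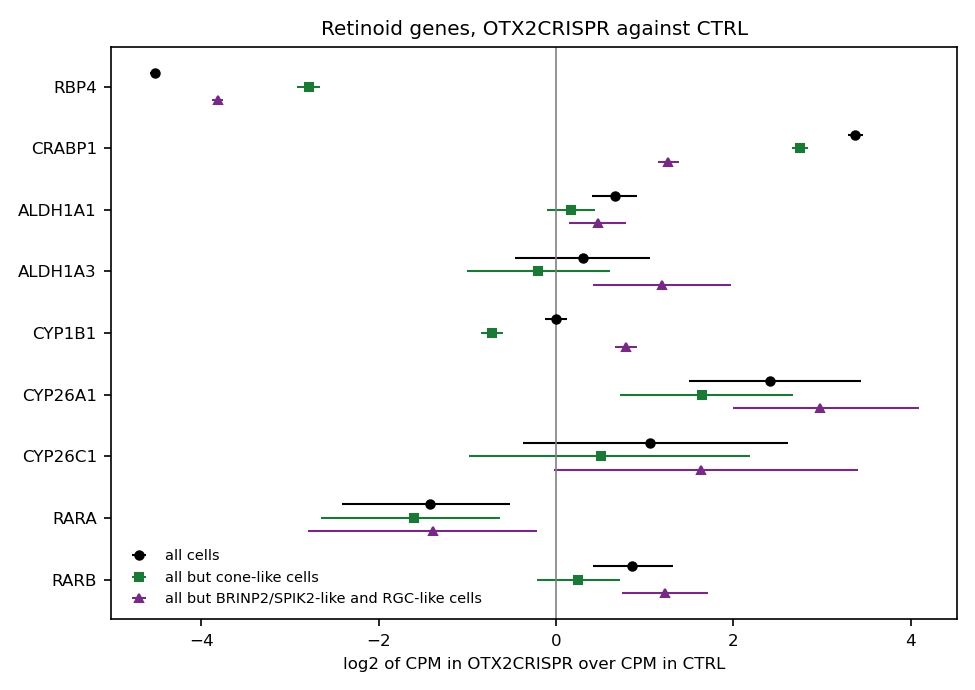
Log2 ratio of CPM, OTX2CRISPR over CTRL, of the 9 members, over all cells and without the cone-like or the BRINP2/SPIK2- and RGC-like cells. Points are ratios, bars are 95% intervals for counting error, and the whole-library values run from -4.52 for RBP4 to 3.37 for CRABP1.

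RBP4, here the entry with the RefSeq synonym RBP4B, was the most abundant member in CTRL and was concentrated in cone-like cells of both libraries. It had 2399 UMIs (182 CPM) in OTX2CRISPR and 61698 UMIs (4176 CPM) in CTRL, a 23.0-fold lower level with a log2 ratio of -4.52 (-4.58 to -4.46). Cone-like cells held 76.2% of these UMIs in OTX2CRISPR and 95.8% in CTRL. Over all cone-like cells RBP4 stood at 7989 CPM in OTX2CRISPR and 9451 CPM in CTRL, a log2 ratio of -0.24 (-0.31 to -0.18). The 107 OTX2CRISPR cone-like cells had less GFP reporter, at 114 CPM against 508 CPM in CTRL, a log2 ratio of -2.16 (-2.78 to -1.61). OTX2 stood at 2557 CPM in OTX2CRISPR and 2867 CPM in CTRL in these classes. The reporter was also lower in restricted RPC-like cells, at 335 CPM in OTX2CRISPR and 878 CPM in CTRL. Multipotent RPC-like cells had 62.6 CPM in OTX2CRISPR and 156 CPM in CTRL. In HC1-, HC2-, RGC- and AC/HC/RGC-like cells the interval of its log2 ratio held 0. BRINP2/SPIK2-like cells held 82.0% of the reporter's UMIs in OTX2CRISPR and 2.35% in CTRL. The part of these reporter differences in the RBP4 ratios was not tested.

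In cone PR2-like cells, the class with the highest level, RBP4 stood at 10136.5 CPM in OTX2CRISPR and 11510.5 CPM in CTRL, a log2 ratio of -0.18 (-0.29 to -0.08). In cone PR1-like cells it stood at 6619 CPM in OTX2CRISPR and 7526 CPM in CTRL, a log2 ratio of -0.19 (-0.32 to -0.06). In cone homotypical PC-like cells, cycling cells with cone markers, it stood at 7182 CPM in OTX2CRISPR and 9674 CPM in CTRL, a log2 ratio of -0.43 (-0.55 to -0.31). All 3 ratios were thus below 0, with intervals that excluded 0. Each OTX2CRISPR value rests on 30 to 39 cells, and in cone PR2-like cells the sign turned in a pair of other clusterings (0.17 with 20 principal components, 0.085 with all variable genes).

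Among the cone-like cells thinned to 1000 UMIs, nearly all held RBP4. A UMI was found in 92.1% of OTX2CRISPR and 98.0% of CTRL cone PR2-like cells, in 93.3% of OTX2CRISPR and 99.0% of CTRL cone homotypical PC-like cells, and in 81.6% (65.7% to 92.3%) of OTX2CRISPR and 91.7% of CTRL cone PR1-like cells. The median cone PR2-like cell, not thinned, held 21 RBP4 UMIs in OTX2CRISPR and 27 in CTRL, and the median cone PR1-like cell 12 in OTX2CRISPR and 15 in CTRL. The median cone homotypical PC-like cell held 17.5 UMIs in OTX2CRISPR and 28 in CTRL. These counts are not corrected for depth, which was lower in OTX2CRISPR. The median depth of cone PR2-like cells was 1527 UMIs in OTX2CRISPR and 2213.5 in CTRL. That of cone PR1-like cells was 1883.5 in OTX2CRISPR and 2122 in CTRL, and that of cone homotypical PC-like cells 2383 in OTX2CRISPR and 3117 in CTRL.

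Outside the cone-like classes RBP4 was low, and lower in OTX2CRISPR than in CTRL in each of the 7 classes. In multipotent RPC-like cells it had 27 UMIs (28.6 CPM) in OTX2CRISPR and 805 UMIs (720 CPM) in CTRL, a log2 ratio of -4.65 (-5.26 to -4.10), the lowest of the 3006 genes with at least 100 UMIs in that class. It also had the lowest ratio of the 2733 such genes in HC2-like cells, at 7.06 CPM in OTX2CRISPR and 189 CPM in CTRL, and of the 2355 in AC/HC/RGC-like cells, at 41.2 CPM in OTX2CRISPR and 419 CPM in CTRL. In restricted RPC-like cells it stood at 62.3 CPM in OTX2CRISPR and 239 CPM in CTRL, and in the cluster of that class with cells of both libraries at 89.9 CPM in OTX2CRISPR and 241 CPM in CTRL, a log2 ratio of -1.42 (-1.71 to -1.15).

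RGC-like cells gave the lowest RBP4 value in both libraries. These cells, which serve here as cells that should lack a cone transcript, had 5.32 CPM (2.43 to 10.1) in OTX2CRISPR and 77.8 CPM in CTRL. In OTX2CRISPR the interval overlapped that of HC2-like cells (7.06 CPM, 1.92 to 18.1), so their order is not fixed there. HC1-like cells had 20.8 CPM in OTX2CRISPR and 281 CPM in CTRL. BRINP2/SPIK2-like cells had 277 UMIs (58.9 CPM) in OTX2CRISPR and 33 UMIs (327 CPM) in the 31 CTRL cells, a log2 ratio of -2.47 (-3.00 to -1.91). That ratio turned to 0.85 (-1.64 to 6.16) with a wider cell filter, which left 11 CTRL cells in the class.

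The share of RGC-like cells with an RBP4 UMI, after thinning, was 0.598% (0.123% to 1.74%) in OTX2CRISPR and 8.11% (4.26% to 13.7%) in CTRL. No RGC-like cell held more than 1 such UMI in OTX2CRISPR or more than 3 in CTRL. In CTRL the shares of HC2-like cells (10.0%), of BRINP2/SPIK2-like cells (10.0%), of HC1-like cells (17.0%) and of restricted RPC-like cells (12.7%) had intervals that overlapped that of RGC-like cells. By summed level, however, these classes stood at 189 to 327 CPM in CTRL, with intervals above that of RGC-like cells (56.8 to 104 CPM), so shares and levels place them differently. Few cells supplied much of these levels. In CTRL, cells with 10 or more RBP4 UMIs held 48.1% of the UMIs in HC2-like (5 cells) and 45.1% in HC1-like cells (2 cells). They held 43.5% in restricted RPC-like (29 cells) and 33.3% in BRINP2/SPIK2-like cells (1 cell). CTRL RGC-like cells had 0 such cells. The thinned shares of multipotent RPC-like cells (22.2%, 17.8% to 27.1%) and AC/HC/RGC-like cells (20.3%, 15.9% to 25.2%) had intervals above that of RGC-like cells. Without thinning, the CTRL shares were 27.0% in RGC-like, 36.3% in multipotent RPC-like and 38.5% in AC/HC/RGC-like cells. Those of HC2-, BRINP2/SPIK2-, HC1- and restricted RPC-like cells were 25.1%, 29.0%, 30.7% and 30.8%. RGC-like cells had the highest median depth in CTRL, 3845.5 UMIs, so their order depends on the thinning. In OTX2CRISPR the share after thinning was 3.37% in BRINP2/SPIK2-like, 2.73% in restricted RPC-like, 2.14% in AC/HC/RGC-like, 1.07% in multipotent RPC-like, 1.002% in HC1-like and 0.455% in HC2-like cells.

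A few cells supplied much of the RBP4 found in CTRL progenitors. Of the multipotent RPC-like cells 1 in OTX2CRISPR and 34 in CTRL held 10 or more RBP4 UMIs, and these 34 held 79.1% of the CTRL UMIs of the class. By Scrublet score 13 of the 34 were among the 4% of CTRL cells most like doublets, against 31 of all 336 CTRL cells of the class. Of the restricted RPC-like cells 6 in OTX2CRISPR and 29 in CTRL held as many, and 15 of these 29 were among the most doublet-like. In CTRL so were 4 of 5 such HC2-like, 1 of 2 HC1-like, 2 of 9 AC/HC/RGC-like and 0 of 1 BRINP2/SPIK2-like cells. The part of doublets in the progenitor ratios was not tested beyond leaving out those cells, which gave a log2 ratio of -2.48 over all classes but the cone-like ones, against -2.79 with them.

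RBP4 was also set beside 5 other genes of cone photoreceptors, GNGT2, PDE6H, RXRG, OTX5 and EGFLAM, since RNA freed from a single source would keep its genes in the same ratio in every class. In cone-like cells there were 431 (388 to 480) RBP4 UMIs per 100 UMIs of these genes in OTX2CRISPR and 453 (445 to 462) in CTRL. The cone-like classes themselves had no common ratio, with 302 in OTX2CRISPR and 297 in CTRL for cone PR2-, 514 in OTX2CRISPR and 498 in CTRL for cone homotypical PC-, and 846 in OTX2CRISPR and 888 in CTRL for cone PR1-like cells. In all other classes there were 105 (92.8 to 118) in OTX2CRISPR and 348 (320 to 378) in CTRL. RXRG made up most UMIs of the 5 genes. In cone-like cells it gave 291 of 424 in OTX2CRISPR and 9442 of 13046 in CTRL. In all other classes it gave 467 of 546 in OTX2CRISPR and 553 of 746 in CTRL. BRINP2/SPIK2-like cells held 320 of these 467 RXRG UMIs in OTX2CRISPR and 27 of the 553 in CTRL. The ratio is thus largely that of RBP4 to RXRG, and whether RXRG outside cones was free RNA was not tested. By class, AC/HC/RGC-like cells had 457 (198 to 1227, on 7 UMIs of the 5 genes) in OTX2CRISPR and 486 in CTRL. RGC-like cells had 23.7 in OTX2CRISPR and 180 in CTRL, and BRINP2/SPIK2-like cells 76.5 in OTX2CRISPR and 103 in CTRL. Restricted RPC-like cells had 207 in OTX2CRISPR and 385 in CTRL, and multipotent RPC-like cells 180 in OTX2CRISPR and 333 in CTRL. HC1-like cells had 95.8 in OTX2CRISPR and 215 in CTRL, and HC2-like cells 4 RBP4 UMIs in OTX2CRISPR and 343 per 100 in CTRL. Within each cone-like class the ratio was therefore close between the libraries. Pooled over the other classes it was below that of every cone-like class in OTX2CRISPR, and in CTRL it was above that of cone PR2-like cells and below that of the others. As the cone-like classes had no common ratio, the comparison has no expected value for free RNA. How much of the RBP4 outside cones was free RNA was not tested.

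With the CTRL level in every class and the OTX2CRISPR class sizes, RBP4 would stand at 458 CPM, a log2 ratio to CTRL of -3.19. With the CTRL class sizes and the OTX2CRISPR levels it would stand at 3311 CPM, a log2 ratio of -0.33. The sizes of all classes, exchanged together, thus carried more of the whole-library ratio than the levels inside classes did, as arithmetic on these classes. The number of cone-like cells was not exchanged alone. The value of 458 CPM takes the CTRL level of BRINP2/SPIK2-like cells from 33 UMIs in 31 cells.

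The gene table holds a second entry, RBP4A. In the RefSeq gene table (GRCg7b) the entry RBP4 has the synonym RBP4B and lies next to PDE6B and IDUA, while RBP4A has the synonyms RBP and RBP4 and lies next to PDE6C and FFAR4, the neighbours of human RBP4. RBP4A, looked up after the gene table was seen, had 7 UMIs in OTX2CRISPR and 6 in CTRL. The levels given here as RBP4 are therefore those of the entry with the synonym RBP4B. They are not those of the entry with the neighbours of human RBP4. What the RBP4B product carries was not tested.

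**Figure D2:**
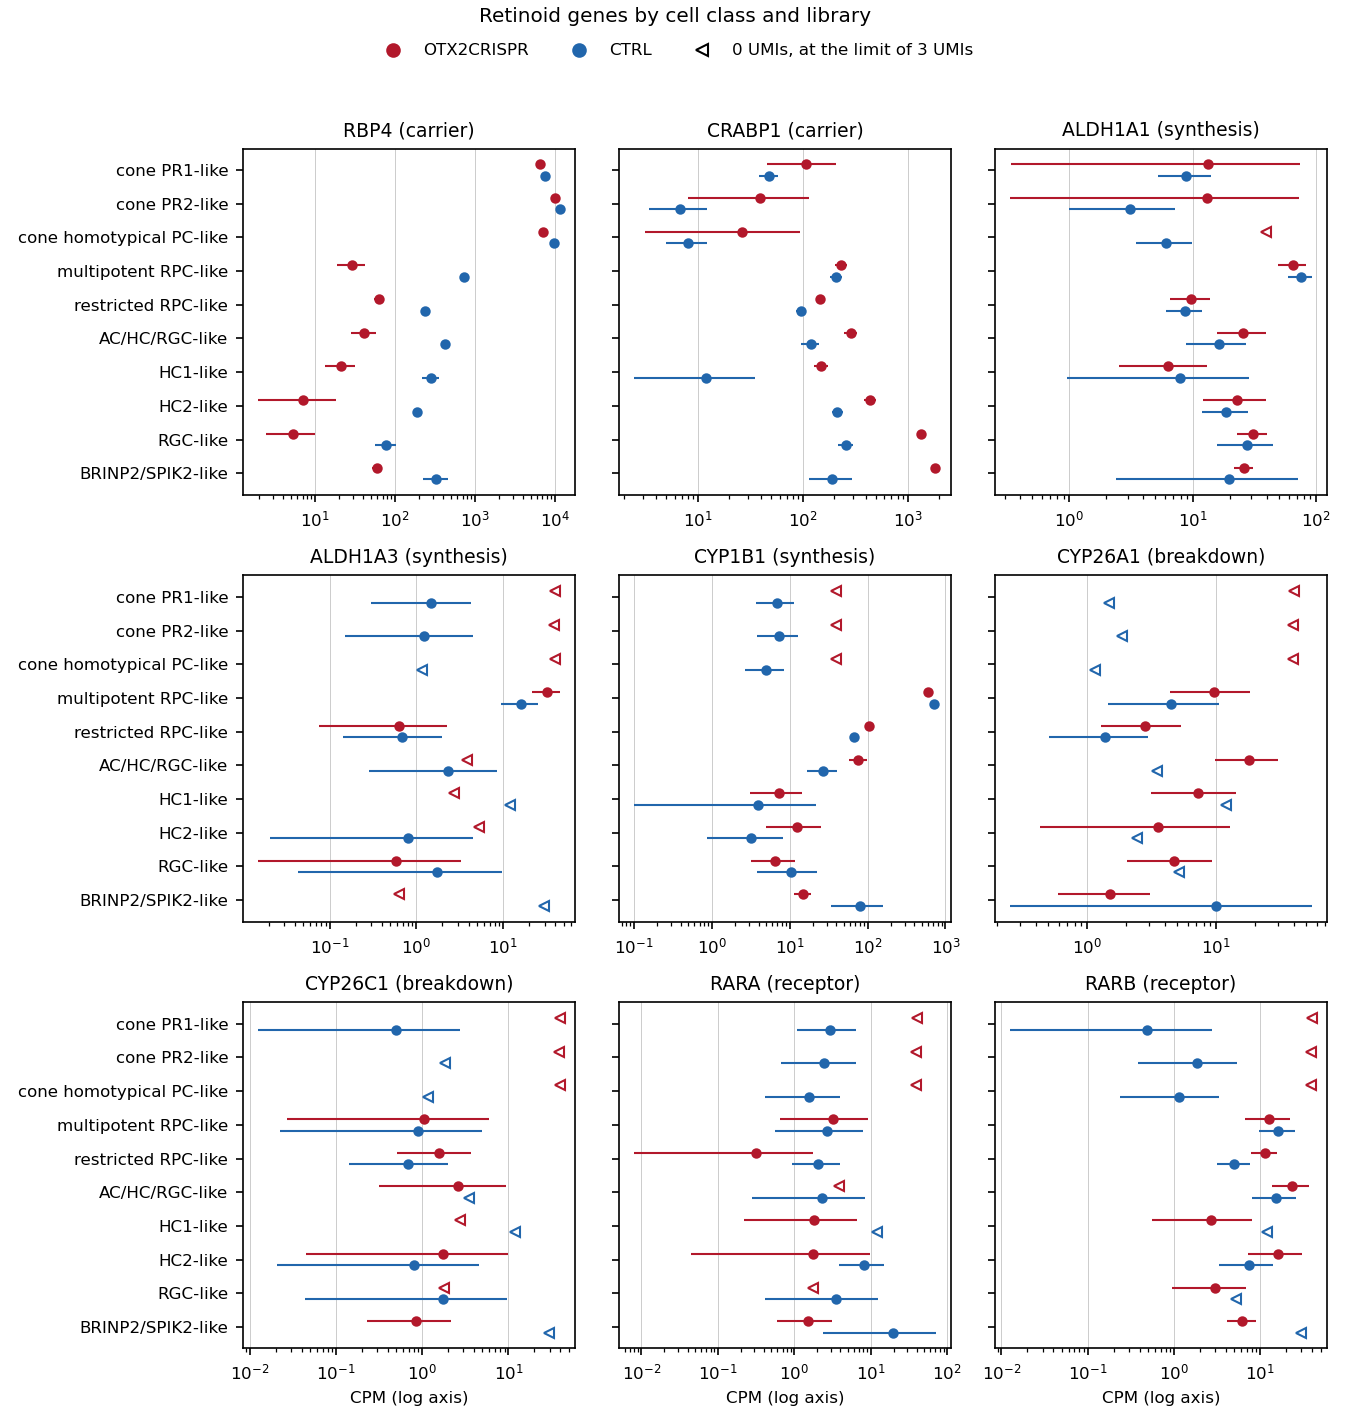
Levels of the 9 members in CPM (horizontal log axis) in each class (vertical), OTX2CRISPR above CTRL, as points with 95% Poisson intervals for counting error, and with open triangles at the limit of 3 UMIs where a class had 0. RBP4 is highest in the 3 cone-like classes of both libraries, CRABP1 in the BRINP2/SPIK2- and RGC-like classes of OTX2CRISPR, and CYP1B1 in multipotent RPC-like cells.

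CRABP1, which binds retinoic acid in the cytoplasm, was the most abundant member in OTX2CRISPR. It had 12176 UMIs (922 CPM) in OTX2CRISPR and 1314 UMIs (88.9 CPM) in CTRL, a 10.4-fold higher level with a log2 ratio of 3.37 (3.29 to 3.46). BRINP2/SPIK2-like cells held 70.4% of its UMIs in OTX2CRISPR and 1.45% in CTRL, and RGC-like cells 18.6% in OTX2CRISPR and 11.3% in CTRL. In CTRL the UMIs were spread over restricted RPC-like (31.8%), HC2-like (20.02%) and multipotent RPC-like cells (17.7%).

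The BRINP2/SPIK2-like class had the highest CRABP1 level in OTX2CRISPR, 1824 CPM from 8575 UMIs, against 188 CPM from 19 UMIs in CTRL. CRABP1 is among the leading genes of this cluster, so its level there against other classes is a description. The log2 ratio within the class was 3.28 (2.63 to 4.01), and with 20 principal components, which left 6 CTRL cells in it, 2.39 (1.35 to 3.71). The median log2 ratio of all genes with at least 500 UMIs in this class was itself 0.13, and in AC/HC/RGC-like cells it was -0.10.

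RGC-like cells, whose axons form the optic nerve, had the next level. They gave 2267 UMIs (1340 CPM) in OTX2CRISPR and 148 UMIs (256 CPM) in CTRL, a 5.24-fold higher level with a log2 ratio of 2.39 (2.15 to 2.64). CRABP1 was the only member with 100 UMIs in this class, and it stood 8th from the highest of 3703 genes, of which 1.70% were at least 2-fold higher in OTX2CRISPR. In CTRL the order of the classes differed, since RGC-like, HC2-like, multipotent RPC-like and BRINP2/SPIK2-like cells, at 256, 214, 208 and 188 CPM, had intervals that overlapped their neighbours.

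The remaining classes had lower levels in OTX2CRISPR than these. HC2-like cells stood at 436 CPM in OTX2CRISPR and 214 CPM in CTRL, a log2 ratio of 1.03 (0.77 to 1.29). AC/HC/RGC-like cells stood at 286 CPM in OTX2CRISPR and 119 CPM in CTRL, a log2 ratio of 1.27 (0.92 to 1.62), and restricted RPC-like cells at 147 CPM in OTX2CRISPR and 95.4 CPM in CTRL, a log2 ratio of 0.62 (0.43 to 0.82). In multipotent RPC-like cells the level was 232 CPM in OTX2CRISPR and 208 CPM in CTRL, and the interval of the ratio held 0 (-0.12 to 0.43). HC1-like cells had 164 UMIs (148 CPM) in OTX2CRISPR and 3 UMIs (11.9 CPM) in CTRL, a log2 ratio of 3.64 (2.07 to 5.93), the highest of 2345 genes in that class.

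Cone-like cells had little CRABP1, 13 UMIs (56.8 CPM) in OTX2CRISPR and 128 UMIs (20.5 CPM) in CTRL. The interval of the ratio was above 0 in 7 of the 10 classes and below 0 in none. Some of the 7 rest on few counts. Cone PR2-like cells had 3 UMIs in OTX2CRISPR and 11 in CTRL, a log2 ratio of 2.52 (0.04 to 4.44). HC1-like cells had 3 UMIs in CTRL, and the BRINP2/SPIK2-like class had 31 CTRL cells. How much of the CRABP1 outside the BRINP2/SPIK2- and RGC-like cells was free RNA was not tested. Without the BRINP2/SPIK2- and RGC-like cells CRABP1 stood at 196 CPM in OTX2CRISPR and 81.4 CPM in CTRL, a 2.41-fold higher level. With the CTRL level in every class and the OTX2CRISPR class sizes it would stand at 155 CPM, and with the CTRL class sizes and the OTX2CRISPR levels at 205 CPM, against 922 CPM in OTX2CRISPR and 88.9 CPM in CTRL. Neither class sizes nor levels alone gave the whole-library ratio. The value of 155 CPM takes the CTRL level of BRINP2/SPIK2-like cells from 19 UMIs in 31 cells. For that class, found almost only in OTX2CRISPR, size and level are poorly separated.

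After thinning, 44.6% of BRINP2/SPIK2-like cells in OTX2CRISPR and 23.3% (9.93% to 42.3%) in CTRL held a CRABP1 UMI, as did 45.8% of RGC-like cells in OTX2CRISPR and 24.3% in CTRL. The pooled cone-like cells gave 5.66% in OTX2CRISPR and 2.15% in CTRL, with median depths of 1970 UMIs in OTX2CRISPR and 2463 UMIs in CTRL before thinning. In HC1-like cells the share was 9.82% in OTX2CRISPR and 0 of 88 cells in CTRL, where 3 counts of the total would be a share of cells with a UMI of 3.41%. Without thinning, 17.6% of these cells in OTX2CRISPR and 3 of 88 in CTRL held a UMI. Shares in HC2-like cells were 55 of 220 cells in OTX2CRISPR and 17.2% in CTRL, in multipotent RPC-like cells 18.5% in OTX2CRISPR and 13.6% in CTRL, in AC/HC/RGC-like cells 17.1% in OTX2CRISPR and 9.80% in CTRL, and in restricted RPC-like cells 10.3% in OTX2CRISPR and 9.25% in CTRL.

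The UMIs were unevenly spread over cells. In OTX2CRISPR the BRINP2/SPIK2-like cell with most held 227 CRABP1 UMIs and the median cell 1, and the top 10% of these cells (183) held 61.7% of the UMIs. In the RGC-like cells the top 51 cells held 57.7%, with a maximum of 83 in OTX2CRISPR. Cells with 10 or more CRABP1 UMIs numbered 231 in OTX2CRISPR and 0 in CTRL among BRINP2/SPIK2-like cells, and 58 in OTX2CRISPR and 0 in CTRL among RGC-like cells.

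Within the RGC-like class the CRABP1 levels of cells with and without the ganglion cell factors POU4F2 and POU4F3 had overlapping intervals. In OTX2CRISPR, after thinning, the 229 RGC-like cells with a UMI of either factor had 1262 CPM (1121 to 1416) of CRABP1, and the 273 cells without had 1429 CPM (1290 to 1578). In CTRL the values were 317 and 307 CPM. Among BRINP2/SPIK2-like cells of OTX2CRISPR, 139 cells with a UMI of either factor had 2388 CPM (2138 to 2660), and the 1671 cells without had 1575 CPM (1516 to 1636).

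**Figure D3:**
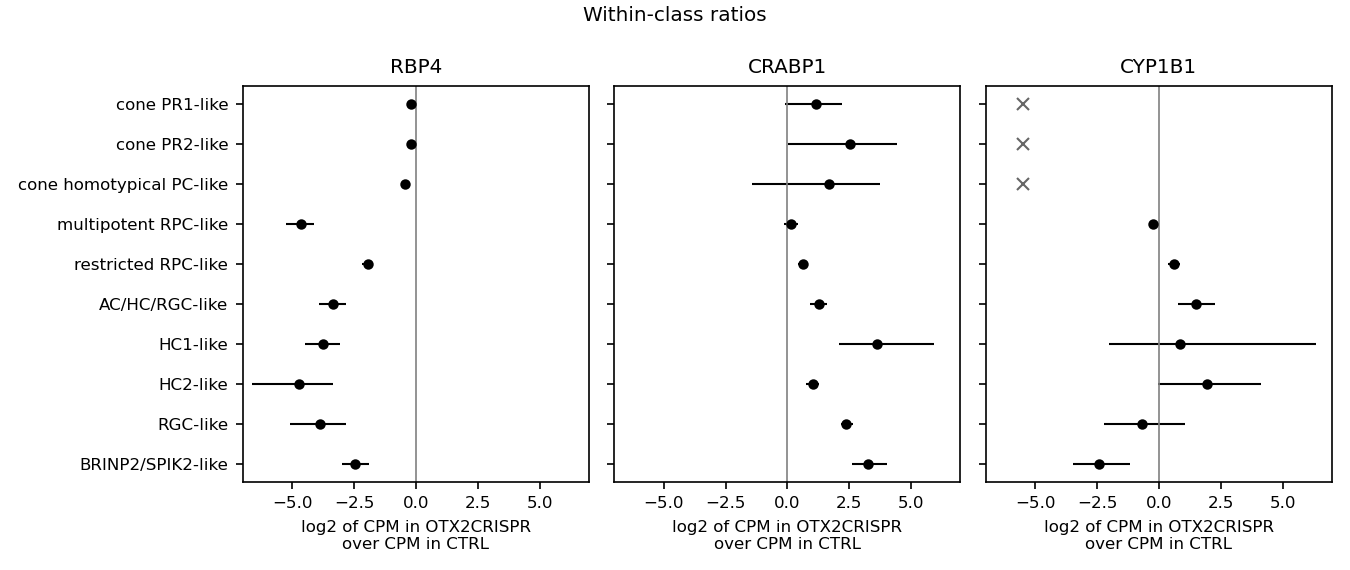
Log2 ratio of CPM, OTX2CRISPR over CTRL, of RBP4, CRABP1 and CYP1B1 within each class, with 95% intervals for counting error. RBP4 lies below 0 in 10 of 10 classes, CRABP1 lies above 0 with its whole interval in 7 of 10, and crosses mark classes in which CYP1B1 had 0 UMIs in OTX2CRISPR and no finite ratio.

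ALDH1A1, the dehydrogenase that makes retinoic acid in the dorsal retina, had 308 UMIs (23.3 CPM) in OTX2CRISPR and 218 UMIs (14.8 CPM) in CTRL, a log2 ratio of 0.66 (0.41 to 0.92). In no class did the interval of the ratio exclude 0. Multipotent RPC-like cells had the highest level in both libraries, 64.7 CPM in OTX2CRISPR and 75.1 CPM in CTRL, and their intervals did not overlap that of the next class. RGC-like cells followed at 30.7 CPM in OTX2CRISPR and 27.7 CPM in CTRL, BRINP2/SPIK2-like cells at 25.9 CPM in OTX2CRISPR and 19.8 CPM in CTRL, AC/HC/RGC-like cells at 25.7 CPM in OTX2CRISPR and 16.3 CPM in CTRL and HC2-like cells at 22.9 CPM in OTX2CRISPR and 18.7 CPM in CTRL. Restricted RPC-like cells had 9.71 CPM in OTX2CRISPR and 8.67 CPM in CTRL, and cone-like cells 2 UMIs in OTX2CRISPR and 39 in CTRL.

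The classes that followed the multipotent one thus had close levels in both libraries, and their order is not fixed by the counts. BRINP2/SPIK2-like cells held 39.6% of ALDH1A1 UMIs in OTX2CRISPR and 0.917% in CTRL, and multipotent RPC-like cells 19.8% in OTX2CRISPR and 38.5% in CTRL. Without cone-like cells the log2 ratio was 0.17 (-0.10 to 0.44). With the CTRL level in every class and the OTX2CRISPR class sizes ALDH1A1 would stand at 20.6 CPM, and with the CTRL class sizes and the OTX2CRISPR levels at 15.9 CPM. The value of 20.6 CPM takes the CTRL level of BRINP2/SPIK2-like cells from 2 UMIs.

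ALDH1A3, the dehydrogenase of the ventral retina, was found mostly in multipotent RPC-like cells. They held 90.9% of its 33 UMIs in OTX2CRISPR and 60.0% of its 30 UMIs in CTRL. The level in this class was 31.8 CPM in OTX2CRISPR and 16.1 CPM in CTRL, from 30 UMIs in OTX2CRISPR and 18 UMIs in CTRL, a log2 ratio of 0.98 (0.09 to 1.91). No UMI was found in cone-like or BRINP2/SPIK2-like cells of OTX2CRISPR, and cone-like cells of CTRL had 5.

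CYP1B1, the cytochrome P450, had the same whole-library level, 79.0 CPM (1044 UMIs) in OTX2CRISPR and 79.0 CPM (1167 UMIs) in CTRL, a log2 ratio of 0.00 (-0.12 to 0.12). Its levels within classes differed in both directions. In multipotent RPC-like cells, where it was highest and is among the leading genes of the cluster, it stood at 594 CPM in OTX2CRISPR and 708 CPM in CTRL, a log2 ratio of -0.25 (-0.41 to -0.09). In restricted RPC-like cells it stood at 103 CPM in OTX2CRISPR and 67.3 CPM in CTRL, a log2 ratio of 0.62 (0.39 to 0.85). In AC/HC/RGC-like cells it stood at 76.0 CPM in OTX2CRISPR and 26.8 CPM in CTRL, a log2 ratio of 1.503 (0.79 to 2.27).

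The multipotent class held 53.6% of CYP1B1 UMIs in OTX2CRISPR and 67.8% in CTRL, and the restricted class 31.6% in OTX2CRISPR and 25.3% in CTRL. BRINP2/SPIK2-like cells had 69 UMIs (14.7 CPM) in OTX2CRISPR and 8 UMIs (79.3 CPM) in CTRL, a log2 ratio of -2.43 (-3.49 to -1.17). In the other classes the interval held 0. Cone-like cells had 0 UMIs in OTX2CRISPR and 39 in CTRL, and after thinning 0 of 106 OTX2CRISPR cone-like cells held one, where 3 counts of the total would be a share of cells with a UMI of 2.83%, against 0.675% in CTRL, and no difference could be detected at that depth. The equal whole-library levels thus came with a lower level in OTX2CRISPR once cone-like cells were left out, 80.4 CPM against 132 CPM in CTRL (log2 ratio -0.72, -0.84 to -0.60). Leaving out the BRINP2/SPIK2- and RGC-like cells instead turned the direction, to 141 CPM in OTX2CRISPR and 81.8 CPM in CTRL (log2 ratio 0.79, 0.67 to 0.92).

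Cell cycle phase, scored from S and G2/M genes, separated the CYP1B1 levels further. Multipotent RPC-like cells had 481 CPM in OTX2CRISPR and 844 CPM in CTRL when in G1, 623 CPM in OTX2CRISPR and 803 CPM in CTRL when in S, and 674 CPM in OTX2CRISPR and 560 CPM in CTRL when in G2/M. Restricted RPC-like cells had 109 CPM in OTX2CRISPR and 202 CPM in CTRL in G1, 104 CPM in OTX2CRISPR and 179 CPM in CTRL in S, and 103 CPM (90.4 to 117) in OTX2CRISPR and 30.8 CPM (25.2 to 37.4) in CTRL in G2/M. In the restricted cluster with cells of both libraries the values were 192 CPM in OTX2CRISPR and 203 CPM in CTRL in G1, 119 CPM in OTX2CRISPR and 181 CPM in CTRL in S and 118 CPM in OTX2CRISPR and 30.9 CPM in CTRL in G2/M. Among these progenitors OTX2CRISPR was thus above CTRL in G2/M alone, where the intervals overlapped in multipotent RPC-like cells (590 to 766 against 494 to 632 CPM) and not in restricted RPC-like cells. With G1 cells alone, the whole-library log2 ratio was -1.04 (-1.26 to -0.81), so the call of equal levels holds for cells of all phases together.

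**Figure D4:**
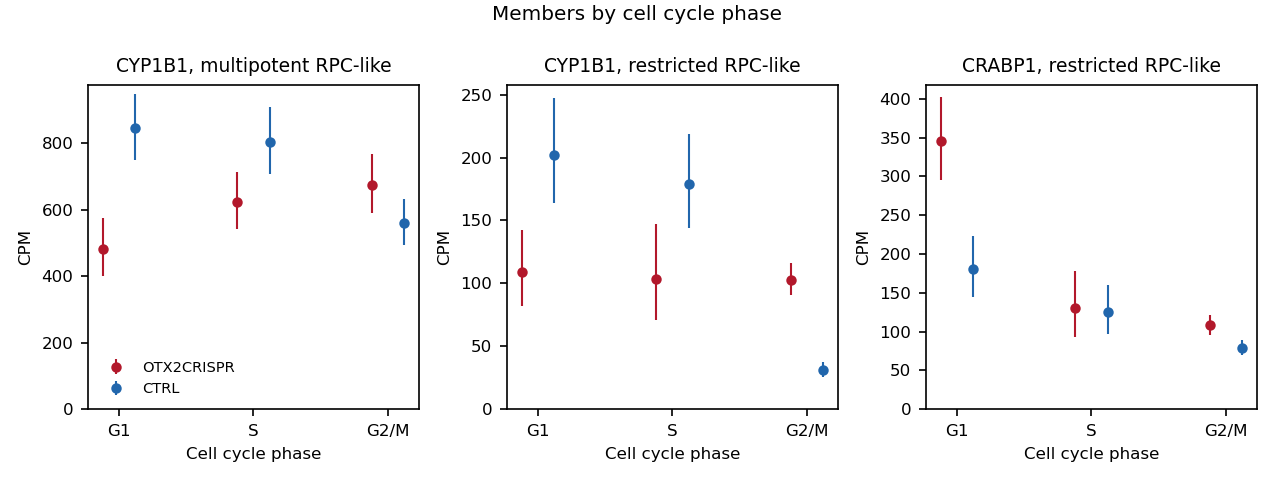
CPM of CYP1B1 in multipotent and restricted RPC-like cells and of CRABP1 in restricted RPC-like cells (vertical axes) by cell cycle phase, OTX2CRISPR left of CTRL, with 95% Poisson intervals for counting error. CYP1B1 in restricted RPC-like cells in G2/M is at 103 CPM in OTX2CRISPR and 30.8 CPM in CTRL, while in G1 it is at 109 CPM in OTX2CRISPR and 202 CPM in CTRL.

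CRABP1 also differed by phase. BRINP2/SPIK2-like cells of OTX2CRISPR had 1903 CPM in G1, 1724 CPM in S and 355 CPM in G2/M. Restricted RPC-like cells had 346 CPM in OTX2CRISPR and 181 CPM in CTRL in G1, 131 CPM in OTX2CRISPR and 125 CPM in CTRL in S, and 108 CPM in OTX2CRISPR and 78.6 CPM in CTRL in G2/M. In multipotent RPC-like cells the values were 225 CPM in OTX2CRISPR and 246 CPM in CTRL in G1, 202 CPM in OTX2CRISPR and 265 CPM in CTRL in S, and 250 CPM in OTX2CRISPR and 148 CPM in CTRL in G2/M.

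CYP26A1, which inactivates retinoic acid, had 57 UMIs (4.32 CPM) in OTX2CRISPR and 12 UMIs (0.812 CPM) in CTRL, a 5.31-fold higher level with a log2 ratio of 2.41 (1.495 to 3.44). No UMI was found in cone-like cells of either library, and without these cells the log2 ratio was 1.64 (0.73 to 2.67). AC/HC/RGC-like cells had 14 UMIs (18.0 CPM) in OTX2CRISPR and 0 in CTRL, which is 5.16-fold above a floor of 3 counts in the CTRL class. The exact interval of the log2 ratio, which allows for the error of both counts, began lower, at 1.87. Multipotent RPC-like cells had 9.54 CPM in OTX2CRISPR and 4.47 CPM in CTRL, and restricted RPC-like cells 2.82 CPM in OTX2CRISPR and 1.37 CPM in CTRL, with intervals of the ratio that held 0. HC1-like cells had 8 UMIs in OTX2CRISPR and 0 in CTRL, and RGC-like cells 8 in OTX2CRISPR and 0 in CTRL, where the CTRL classes were too small to set a bound above 1-fold.

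CYP26C1, a neighbour of CYP26A1 in the RefSeq table with the same activity, had 13 UMIs (0.984 CPM) in OTX2CRISPR and 7 UMIs (0.474 CPM) in CTRL. The log2 ratio of 1.05 had an interval from -0.38 to 2.62, and no class of either library held more than 5 UMIs. A difference was not detectable at this depth. Both CYP26 genes were thus rare in these sorted cells.

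RARB, a retinoic acid receptor whose gene is itself a target of retinoic acid in many tissues, had 112 UMIs (8.48 CPM) in OTX2CRISPR and 69 UMIs (4.67 CPM) in CTRL, a log2 ratio of 0.86 (0.42 to 1.31). In restricted RPC-like cells it had 36 UMIs (11.3 CPM) in OTX2CRISPR and 22 UMIs (5.02 CPM) in CTRL, a log2 ratio of 1.17 (0.36 to 2.002). AC/HC/RGC-like cells had the highest level in OTX2CRISPR, 23.2 CPM, against 15.1 CPM in CTRL, and multipotent RPC-like cells had 12.7 CPM in OTX2CRISPR and 16.1 CPM in CTRL. Their intervals overlapped, so the order of these classes is not fixed. BRINP2/SPIK2-like cells had 29 UMIs (6.17 CPM) in OTX2CRISPR and 0 in CTRL, where the floor of 3 counts is 29.7 CPM. Without cone-like cells, which had 0 UMIs in OTX2CRISPR and 7 in CTRL, the log2 ratio over the libraries was 0.25 (-0.21 to 0.72).

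RARA, the other receptor, had 14 UMIs (1.06 CPM) in OTX2CRISPR and 42 UMIs (2.84 CPM) in CTRL, a log2 ratio of -1.42 (-2.41 to -0.52). No class held more than 10 UMIs in either library. HC2-like cells had 1 UMI in OTX2CRISPR and 10 in CTRL, restricted RPC-like cells 1 in OTX2CRISPR and 9 in CTRL, and cone-like cells 0 in OTX2CRISPR and 14 in CTRL, with intervals that held 0 in each of these classes. In BRINP2/SPIK2-like cells the 7 UMIs of OTX2CRISPR stood against 2 in CTRL, a log2 ratio of -3.73 (-6.13 to -0.43).

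**Figure D5:**
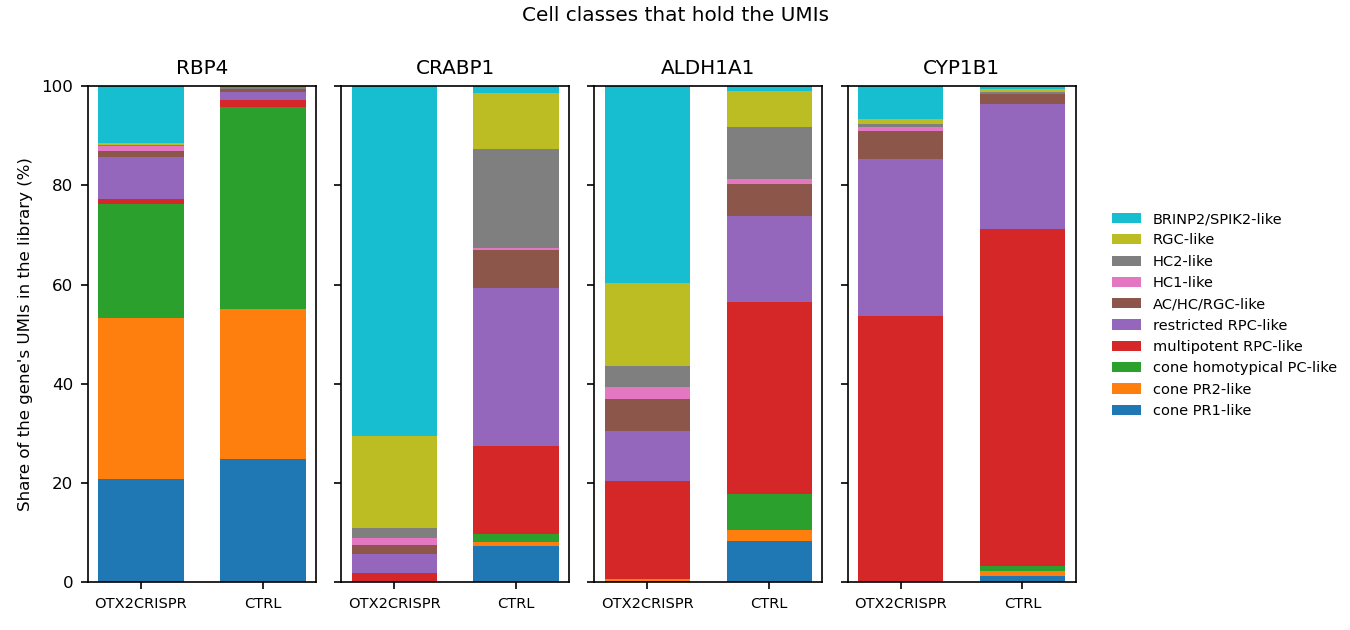
Stacked shares of the UMIs of RBP4, CRABP1, ALDH1A1 and CYP1B1 (percent of the library's UMIs of that gene) by class, OTX2CRISPR left of CTRL. BRINP2/SPIK2-like cells hold 70.4% of CRABP1 UMIs in OTX2CRISPR and 1.45% in CTRL, and cone-like cells hold 76.2% of RBP4 UMIs in OTX2CRISPR and 95.8% in CTRL.

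Genes that mark regions of the retina were compared between multipotent RPC-like cells with and without a UMI of ALDH1A1, ALDH1A3, CYP26A1, CYP26C1 or CYP1B1, since these enzymes mark regions of the embryonic retina. After thinning, 76 pairs of an enzyme and a region gene were set side by side in each library. The region genes EFNB2, NTN1 and EFNA2 had 0 UMIs in this class in both libraries, so their pairs could only overlap. In each library 1 pair had intervals that did not overlap. In CTRL FGF8, a growth factor of the central retina in chick, was found in 9.01% of 111 cells with CYP1B1 and in 1.41% of 213 cells without. In OTX2CRISPR the ventral receptor gene EPHB3 was found in 3 of 7 cells with ALDH1A3 and in 3.65% of 274 cells without. Neither pair had separate intervals in the other library. With the libraries pooled, all 19 ALDH1A3 pairs overlapped, and 1 CYP1B1 pair had separate intervals. These pairs were picked from many, so they do not place the cells in a region. Within each library the intervals of the other thinned pairs overlapped. Some rest on few cells with the enzyme, so the overlap cannot show that an enzyme and a region gene were unrelated. Without thinning, 95 pairs were compared in each library. In CTRL the gene's share was above in cells with the enzyme for 6 pairs and below for 2. In OTX2CRISPR it was above for 4 and below for 0. Cells with and without an enzyme differed in depth before thinning.

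Of 52 other genes of retinoid metabolism and signalling, 5 were not analysed here, 20 had under 100 UMIs and 27 could be compared. Of these 27, 0 were at least 2-fold higher and 3 were at least 2-fold lower in OTX2CRISPR, beside the 6.21% and 3.93% given above, and their median log2 ratio was -0.08. RXRG, the receptor partner of cones and a marker used for the classes, stood at 57.4 CPM in OTX2CRISPR and 677 CPM in CTRL, a log2 ratio of -3.56. Within cone PR1-like cells it stood at 623 CPM in OTX2CRISPR and 635 CPM in CTRL, and within cone PR2-like cells at 2017 CPM in OTX2CRISPR and 2576 CPM in CTRL. Within cone homotypical PC-like cells it stood at 1162 CPM (933 to 1430) in OTX2CRISPR and 1531 CPM (1483 to 1579) in CTRL. The intervals of cone PR2-like cells, 1712 to 2361 in OTX2CRISPR and 2498 to 2655 in CTRL, were also apart. RXRG thus had, as RBP4 did, a larger ratio over the libraries than within cone-like classes. RXRG was also lower in OTX2CRISPR outside these classes, with 14.8 CPM in OTX2CRISPR and 138 CPM in CTRL in multipotent RPC-like cells.

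RDH5, a retinol dehydrogenase of the visual cycle, stood at 13.6 CPM in OTX2CRISPR and 29.0 CPM in CTRL, a log2 ratio of -1.09. In cone PR1-like cells it stood at 26.5 CPM (3.21 to 95.8) in OTX2CRISPR and 56.6 CPM (46.7 to 67.9) in CTRL, in cone PR2-like cells at 26.0 CPM (3.15 to 94.0) in OTX2CRISPR and 84.0 CPM (70.5 to 99.4) in CTRL, and in cone homotypical PC-like cells at 39.2 CPM (8.08 to 114) in OTX2CRISPR and 24.6 CPM (18.9 to 31.4) in CTRL. The OTX2CRISPR values rest on 2 or 3 UMIs each, and all 3 pairs of intervals overlapped. Multipotent RPC-like cells had 0 UMIs (0 to 3.91 CPM) in OTX2CRISPR and 19 UMIs (17.0 CPM, 10.2 to 26.5) in CTRL. This was the only class whose RDH5 intervals were apart. BRINP2/SPIK2-like cells had 93 UMIs (19.8 CPM) in OTX2CRISPR and 0 in CTRL, where the interval reached 36.5 CPM, and no difference could be detected at that depth. RLBP1, which binds retinal in pigment epithelium and Müller glia, stood at 3.48 CPM in OTX2CRISPR and 7.24 CPM in CTRL, a log2 ratio of -1.06. RXRA, the more widely expressed receptor partner, stood at 8.86 CPM in OTX2CRISPR and 17.5 CPM in CTRL, a log2 ratio of -0.98.

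For members with at least 500 UMIs the genes most like them were found by Pearson's r of log2(CPM + 10) over the 20 sums of a class in a library, which share depth and class markers, among 6448 genes. RBP4 was most like RXRG (0.962), IMPG2 (0.952), a photoreceptor matrix gene, SAMD7 (0.947), PRDM1 (0.945) and FSCN2 (0.942). CRABP1 was most like ARHGAP28 (0.884), TNIK (0.808), DCX (0.805), a microtubule protein of young neurons, DCBLD2 (0.790) and PPP3CA (0.788). CYP1B1 was most like ID1 (0.971), NR2E1 (0.968), ADAMTS18 (0.939), SMO (0.921) and FGFBP3 (0.920), of which ID1, NR2E1 and FGFBP3 are markers of multipotent RPCs. ALDH1A1 was most like PLEKHA2 (0.907), CKB (0.864), ZYX (0.851), LOC107054204 (0.850) and SLC2A1 (0.837).

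Markers of other cells that a retinal sort could hold were low, apart from the crystallin gene CRYBA4 of the lens list. The 10 measured markers of retinal pigment epithelium summed to 24.6 CPM in OTX2CRISPR and 32.3 CPM in CTRL. PMEL and MITF had the most UMIs of these. PMEL had 146 UMIs in OTX2CRISPR and 111 in CTRL, and MITF 96 in OTX2CRISPR and 117 in CTRL. RPE65 had 16 UMIs in OTX2CRISPR and 35 UMIs in CTRL, and TTR was at 0 in both. Erythroid markers gave 7 UMIs in OTX2CRISPR and 4 UMIs in CTRL, and markers of microglia and blood 19 UMIs in OTX2CRISPR and 42 UMIs in CTRL. Those of vessels gave 225 UMIs in OTX2CRISPR and 239 UMIs in CTRL. Of these vessel UMIs, PECAM1 had 172 in OTX2CRISPR and 181 in CTRL, and KDR 53 in OTX2CRISPR and 58 in CTRL. CDH5 was at 0 in both. Lens markers gave 3287 UMIs (249 CPM) in OTX2CRISPR and 1963 UMIs (133 CPM) in CTRL, of which CRYBA4 made up 3146 UMIs (238 CPM) in OTX2CRISPR and 1892 UMIs (128 CPM) in CTRL. The other lens markers were low. CRYBA1 had 107 UMIs in OTX2CRISPR and 52 in CTRL, CRYBB1 15 in OTX2CRISPR and 7 in CTRL, and BFSP1 14 in OTX2CRISPR and 4 in CTRL. MIP had 5 UMIs in OTX2CRISPR and 8 in CTRL, with CRYAA at 0 in both. The part of such cells in the members' levels was not tested.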

How the data were processed

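The 2 libraries were made by the authors on the 10X Chromium platform, aligned to GRCg6a with Cell Ranger (matrix header 3.0.2), and deposited as UMI counts of 23967 genes per barcode, with no normalization. Sequences of members were not used here. Cell labels of the authors entered no step. The members and the gene lists were chosen with earlier results of these data known.

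As in the study's source code, a cell was kept if it had 200 to 2500 genes, up to 0.4% of its UMIs in 16 mitochondria-related genes and up to 50% in 80 ribosomal genes. They were clustered in Seurat 5.3.0 (R 4.3.3) with 33 principal components, 30 neighbours and resolution 0.6, with depth, mitochondria-related and ribosomal share and cell cycle scores regressed out. Of 670 variable genes 607 were used, since members, lists and markers were held out. A cluster was named after the class with the highest mean log2 ratio of its markers, if 3 or more of them reached a log2 ratio of 1 and at least 50% of its cells scored highest for that class. Many of these markers come from the study of the same cells. Scrublet marked 5 cells in OTX2CRISPR and 6 in CTRL, so it did not work as a caller and no cell was removed as a doublet.

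UMIs were summed per class and library with Python 3.11.15, numpy 2.4.6, pandas 2.3.3, scipy 1.17.1, scanpy 1.11.5 and anndata 0.12.19, and plotted with matplotlib 3.10.9. Ratios have a conditional exact binomial interval. Cells were thinned to 1000 UMIs for shares, leaving out 92 OTX2CRISPR and 57 CTRL cells. The intervals were tested on simulated Poisson and binomial counts only. Those counts lack the uneven spread over cells seen here for CRABP1 and RBP4. The simulation therefore cannot show that the intervals are wide enough for these data. The genes named are the members, OTX2, pathway genes past 2-fold with at least 100 UMIs, RXR and RAR receptors, and the 5 genes most like each member with at least 500 UMIs. RBP4A, FABP5, CRABP2, RBP5 and MEIS2 were chosen after their values were seen, as were single region, cone and other-cell markers named with values. Alternatives were other clusterings, cell filters, scalings, thinning depths, phases and limits, and, chosen after seeing the data, leaving out the 38 barcodes found in both libraries.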

Additional observations from a re-analysis of the deposited data

Results flagged for a closer look

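The CYP1B1 ratio between OTX2CRISPR and CTRL pointed in opposite directions in different classes, with intervals that left out 0 on either side. The log2 ratio was 0.62 in restricted RPC-like and 1.503 in AC/HC/RGC-like cells, but -0.25 in multipotent RPC-like and -2.43 in BRINP2/SPIK2-like cells, of which CTRL held 31 with 8 UMIs. With a single library in each group the difference between classes was not tested.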

How the results depend on the processing

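Of the 63 alternatives to whole-library ratios 58 kept the value within its interval, as did 547 of 587 for ratios within classes, 494 of 553 for levels, 85 of 240 for shares, which follow the thinning depth, and 2 of 6 for the pathway counts. With G1 cells alone the whole-library log2 ratio was -4.75 for RBP4, 3.46 for CRABP1, -0.60 for ALDH1A3 (its sign turned, on an interval of -1.84 to 0.62) and -1.04 for CYP1B1, and with every cell weighing the same -4.22 for RBP4. RBP4 within cone PR2-like cells was 0.17 with 20 principal components and 0.085 with all variable genes, where all cone-like cells gave -0.16, and within BRINP2/SPIK2-like cells 0.85 with a wider filter. RBP4 outside cone-like cells was -3.16 with 20 components, -3.02 with all variable genes, -2.95 with no regression of cell cycle scores, -2.99 with the wider filter and -2.48 without the highest doublet scores. CRABP1 was 2.39 within BRINP2/SPIK2-like cells with 20 components. Without the BRINP2/SPIK2- and RGC-like cells it was 1.501 with 20 components, 1.10 with no cell cycle regression, 1.45 with the wider filter and 1.10 without the highest doublet scores. CYP1B1 was -0.47 in multipotent RPC-like cells with no cell cycle regression and 0.38 in restricted RPC-like cells with 20 components. A minimum of 20 UMIs gave 1 higher and 5 lower pathway genes, and a 1.5-fold limit 1 higher and 6 lower. The cause was not tested in any of these. At resolution 0.4 no cone PR2-, HC1- or HC2-like class formed, so those values are missing. No paired analysis was possible because each group is a single library. CYP26A1, CYP26C1, ALDH1A3, RARA and RARB are limited by depth.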

Other observations

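Other retinoid carriers had patterns of their own. FABP5, a fatty acid binding protein that can also carry retinoic acid, was highest in RGC-like cells, at 905 CPM in OTX2CRISPR and 908 CPM in CTRL, and in HC2-like cells, at 515 CPM in OTX2CRISPR and 801 CPM in CTRL. Over whole libraries it stood at 236 CPM in OTX2CRISPR and 139 CPM in CTRL, a log2 ratio of 0.76. CRABP2, the paralogue of CRABP1, stood at 41.9 CPM in OTX2CRISPR and 42.8 CPM in CTRL, and was highest in multipotent RPC-like cells, at 126 CPM in OTX2CRISPR and 117 CPM in CTRL. RBP5, a cellular retinol binding protein, also had its highest value in multipotent RPC-like cells, at 228 CPM (199 to 261) in OTX2CRISPR and 241 CPM (213 to 271) in CTRL. Cone PR2-like cells had 130 CPM (62.4 to 239) in OTX2CRISPR and 206 CPM (185 to 230) in CTRL. These intervals overlapped in both libraries, so the order of the classes is not fixed.

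MEIS2, a homeobox gene known as a target of retinoic acid, stood at 131 CPM in OTX2CRISPR and 230 CPM in CTRL. It had 273 CPM in OTX2CRISPR and 497 CPM in CTRL in cone PR2-like cells. BRINP2/SPIK2-like cells had 199 CPM (937 UMIs) in OTX2CRISPR against 79.3 CPM (8 UMIs) in CTRL. These 4 genes were picked after their values were seen.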
